A study of Mus musculus with 18 samples.

Results

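The 10 genes described here encode apolipoproteins, the protein components of plasma lipoproteins. They were followed through liver, kidney and lung of mice with and without a cyclin E1 transgene. The members were Apoa1, Apoa2, Apoa4, Apob, Apoc1, Apoc3, Apoc4, Apoe, Apom and Apoh, chosen by symbol, and they made up 10 of the 24062 genes of the count table. RNA of whole tissue from C57BL/6 mice was sequenced. CCNE-TA mice carried a doxycycline-inducible Ccne1 transgene together with the activator rtTA, and TA mice carried rtTA alone. All mice, controls included, received doxycycline from weaning at 3 weeks of age, and tissue was taken when they were 4 months old. With 3 tissues and 2 genotypes there were 6 groups of 3 libraries, 18 libraries in all. The promoter that drives rtTA was not given in the sources used here, and nothing stated which libraries came from separate animals, so p-values measure only the spread between these samples. In whole tissue, fewer cells of a type and less RNA per cell cannot be told apart.

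Hepatocytes make most plasma apolipoproteins. Apob is the large structural protein that stays with each very-low-density particle from assembly to uptake, while the small exchangeable proteins move between particles. Apoa1 and Apoa2 are the main proteins of high-density lipoprotein, Apoa4 is made mainly in the intestine, the C apolipoproteins act on lipoprotein lipase and on remnant uptake, and Apoe is the ligand for receptors that clear remnants. Apom carries sphingosine-1-phosphate, and Apoh, beta-2-glycoprotein I, binds phospholipids. Apoe is also made by macrophages and Apom by the kidney tubule.

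The genes differ in transcript length and in position (mm10, GENCODE M21). Apob (chromosome 12, 7977648 to 8016835, plus strand) has a transcript of 13934 nt, and the 9 others are short. Apoa2 (chromosome 1, 171225054 to 171226379, plus) measures 518 nt, Apom (chromosome 17, 35128997 to 35132050, minus) 1013 nt and Apoh (chromosome 11, 108343354 to 108414396, plus) 1190 nt. On chromosome 9 lie Apoa1 (46228580 to 46230466, plus, 1035 nt), Apoc3 (46232933 to 46235636, minus, 709 nt) and Apoa4 (46240696 to 46243459, plus, 1815 nt), with 2466 and 5059 bases between neighbours. On the minus strand of chromosome 7 lie Apoc4 (19678083 to 19681479, 538 nt), Apoc1 (19689481 to 19692660, 532 nt) and Apoe (19696109 to 19699188, 1408 nt), 8001 and 3448 bases apart. Exon bases of Apoa4 overlap the antisense locus Gm47528 over 34.9%, and in libraries that do not mark strand these reads cannot be told apart. Those of Apoc4 overlap Gm44805, on the same strand, over 4.7%, and those of Apoh overlap antisense Prkca over 1.9%.

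The sequences just before the gene start are shown for a short gene that rose in CCNE-TA liver from each of 2 loci (Apoa2, Apoc4), for the long gene (Apob) and for a short gene that did not pass the test (Apoa1). They were taken from RefSeq windows on GRCm38.p6 (mm10), end at the base before the annotated gene start and read 5′ to 3′ on the gene's strand. Capitals mark matches to TATAAA, CAAAGNNCA (a core bound by HNF4), AGGTCA (a nuclear receptor half-site), TGTTTNC (a core bound by FOXA proteins) or CCAAT, searched on both strands; no match shown overlaps another.
Apoa2, chr1:171224804-171225053, plus strand: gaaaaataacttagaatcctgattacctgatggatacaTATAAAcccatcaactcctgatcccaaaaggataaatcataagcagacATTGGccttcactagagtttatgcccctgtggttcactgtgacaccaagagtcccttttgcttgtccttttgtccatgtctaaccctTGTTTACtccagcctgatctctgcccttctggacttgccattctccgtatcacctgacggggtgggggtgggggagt
Apoc4, chr7:19681480-19681710, minus strand: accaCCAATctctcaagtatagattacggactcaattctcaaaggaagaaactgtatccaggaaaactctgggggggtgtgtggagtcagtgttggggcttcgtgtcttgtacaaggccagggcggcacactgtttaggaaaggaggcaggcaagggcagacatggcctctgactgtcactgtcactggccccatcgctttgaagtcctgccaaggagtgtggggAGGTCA
Apob, chr12:7977427-7977647, plus strand: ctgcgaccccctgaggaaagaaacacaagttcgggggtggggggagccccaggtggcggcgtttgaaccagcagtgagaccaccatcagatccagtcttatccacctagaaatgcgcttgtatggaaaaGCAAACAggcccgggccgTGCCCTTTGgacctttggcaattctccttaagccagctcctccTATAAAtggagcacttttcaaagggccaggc
Apoa1, chr9:46228380-46228579, plus strand: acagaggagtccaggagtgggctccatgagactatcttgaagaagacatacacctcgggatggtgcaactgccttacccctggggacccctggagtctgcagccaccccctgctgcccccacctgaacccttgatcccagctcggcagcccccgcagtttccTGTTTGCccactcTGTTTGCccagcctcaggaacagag
The Apob window holds TATAAA from 31 to 26 bases before its end, with TGCCCTTTG, the reverse of the HNF4 core, from 74 to 66 and GCAAACA, the reverse of the FOXA core, from 92 to 86. In Apoa1 the letters TGTTTGC occur at 38 to 32 and again at 25 to 19 bases before the end. In Apoa2 TGTTTAC lies at 77 to 71, ATTGG at 164 to 160 and TATAAA at 212 to 207. Apoc4 ends in AGGTCA and has CCAAT at 227 to 223. Among 32851 promoter windows of 250 bases, TATAAA was found in 12.4%, CAAAGNNCA in 5.49%, AGGTCA in 14%, TGTTTNC in 17.8% and CCAAT in 33.8%. The HNF4 core also occurs in the windows of Apoa4 and Apoh, which are not shown. These matches describe the letters only. Windows were found for 8 of the 10 genes, not for Apoc1 and Apoc3, and that of Apom held 1 base before the start.

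Total counts ran from 26214869 to 61954486 in liver, 20352770 to 43202066 in kidney and 41597623 to 155323865 in lung. Ccne1, which checks the labels, showed no overlap between the genotypes in any tissue and was higher in CCNE-TA. In liver it stood at 2.05 to 2.82 CPM (counts scaled to library size) in TA and at 210.1 to 352.6 CPM in CCNE-TA. By Xist, a transcript of female cells, liver TA 2, TA 3 and CCNE-TA 3 were low (0.228 to 3.10 CPM) and the other liver libraries high (401.9 to 780.9 CPM), whereas number 3 alone was low in both genotypes of kidney and lung. If the labels hold, TA 2 is then not 1 animal in liver and in the other tissues. Kap, a tubule gene, stood at 13.8 CPM in liver TA 1 and between 13.1 and 25.6 CPM in CCNE-TA livers, with 0 counts in TA 2 and TA 3, which allows up to 0.0749 and 0.0778 CPM (3 counts). In lung Kap had 1045 counts (13.7 CPM) in CCNE-TA 3, 8 in CCNE-TA 2 and 0 in CCNE-TA 1 and every TA library. The pancreatic enzymes Cela2a and Ctrb1 reached 30.7 and 63.9 CPM in liver TA 1. Markers of the labelled tissue were high in each, with summed levels of 120000 to 241000 CPM for 25 hepatocyte genes in liver, 21100 to 80600 CPM for tubule genes in kidney and 50700 to 130000 CPM for lung genes in lung. The part of Kap and the pancreatic enzymes in the results below was not tested.

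All 10 genes were most abundant in liver. Together they took 4.24%, 4.31% and 3.97% of all counts in TA livers and 6.76%, 6.63% and 6.12% in CCNE-TA livers, but 0.0654% to 0.130% in kidney and 0.0392% to 0.185% in lung. Levels of different genes were compared per transcript length, as TPM (counts divided by transcript length and scaled to the same sum in each library). In TA liver Apoe (25120 ± 496 TPM, SD, n = 3) and Apoa2 (23160 ± 1367 TPM) came first with overlapping ranges, followed by Apoa1 (12760 ± 2993 TPM) and Apoc1 (10480 ± 604 TPM), which also overlapped. Apoc3 (4997 ± 608 TPM), Apoh (4046 ± 364 TPM) and Apoc4 (2073 ± 28.4 TPM) came next, each apart from its neighbours. The ranges of Apob (543 ± 58.1 TPM) and Apom (541 ± 72.7 TPM) overlapped, as did those of Apom and Apoa4 (260 ± 282 TPM). Read counts alone would place Apob above Apoc1, at 3967 against 2924 CPM, so the length correction decides that order.

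In CCNE-TA liver Apoa2 (43610 ± 6383 TPM) stood first and apart from Apoe (27820 ± 5675 TPM), which overlapped with Apoc1 (26450 ± 4465 TPM). Apoa1 (16980 TPM), Apoc3 (11320 TPM), Apoc4 (5637 TPM) and Apoh (3831 TPM) followed in order without overlap. Apoa4 (373 TPM) and Apob (341 TPM) overlapped, and Apom (108 ± 15 TPM) was last and apart. In kidney and lung of both genotypes Apoe was first and apart from the rest, with 501 ± 104 TPM in TA kidney, 849 ± 399 TPM in CCNE-TA kidney, 1003 ± 498 TPM in TA lung and 717 ± 277 TPM in CCNE-TA lung. Behind it in TA kidney came Apoa2 (116 TPM), Apoc3 (108 TPM), Apoc1 (66.5 TPM), Apom (64.4 TPM) and Apoa1 (36.6 TPM), each overlapping with the next. The lowest members were Apoh in TA kidney (9.33 ± 2.05 TPM) and Apoa4 in TA lung (2.30 ± 0.672 TPM).

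**Figure D1:**
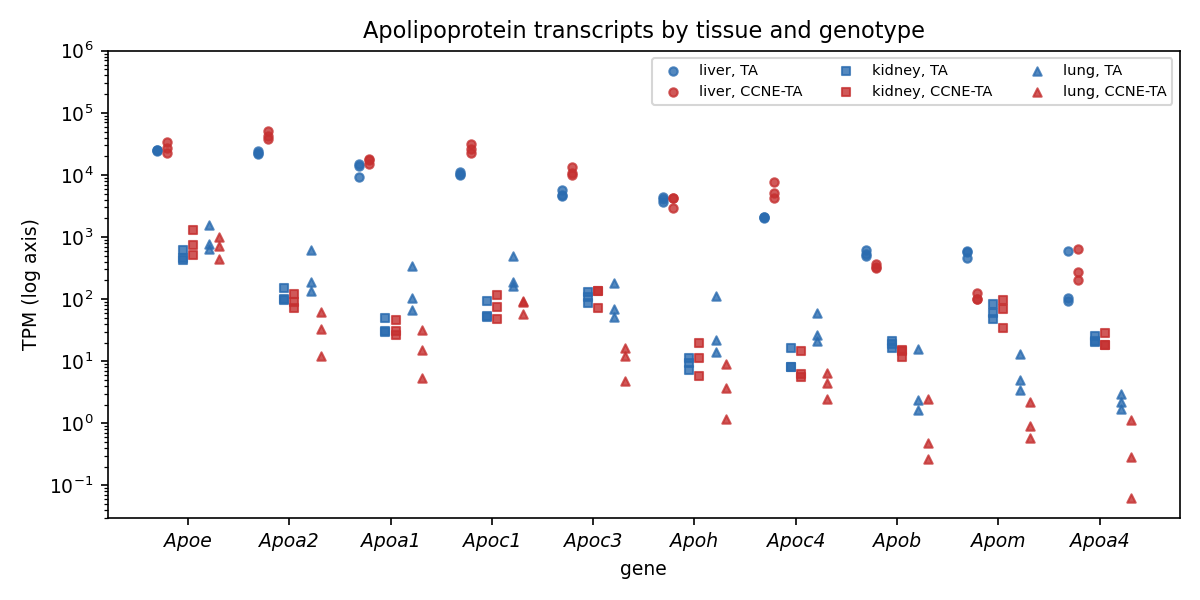
Level of each gene in TPM on a log axis, with 1 point per library, markers by tissue and colours by genotype. Liver points lie above the kidney and lung points of the same gene and genotype, closest for Apom in CCNE-TA mice (99.4 TPM in the lowest liver and 97.0 TPM in the highest kidney), and Apoe leads in kidney and lung.

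In TA mice each of the 10 genes was higher in liver than in lung, by log2 differences from 5.89 ± 0.52 for Apoe (SE, edgeR adjusted p = 5.7e-08) to 7.99 ± 0.94 for Apoa4 (edgeR adjusted p = 2.06e-06). Of 17155 genes tested, 32.6% were higher in liver than in lung. Against kidney all 10 were also higher, where 28.6% of the tested genes were. The smallest kidney differences were those of Apom, 3.93 ± 0.52 (edgeR adjusted p = 7.21e-06), and Apoa4, 4.38 ± 0.80 (edgeR adjusted p = 0.000206). Apoh had the largest, 9.65 ± 0.95, and Apoa1 followed with 9.38 ± 0.74. These 20 calls held under each of the 10 alternatives run for each comparison.

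In liver 4 short apolipoproteins rose in CCNE-TA mice, 1 fell and 5 genes did not pass the test. Apoc4, Apoc1, Apoc3 and Apoa2 were 1.99-fold to 2.75-fold higher, and Apom was 4.78-fold lower. Over all genes tested, 28.5% of 13811 were called in liver, 13.7% higher and 14.8% lower. Groups without overlap were seen for 5 members higher and 2 lower, against 23.2% and 24.7% of all tested genes. The median log2 change was 0.56 over the 10 genes and 0.02 over all tested genes. With an offset for transcript length and GC content, Apom alone passed, against 22.2% of all tested genes, and the changes of Apoa1, Apoe and Apoh turned negative. With TA 1 as the only control none of the 10 passed the edgeR test, against 0.608% of all tested genes, and 3 had an unadjusted p under 0.05, against 18.8%. That fit assumes that the lone TA library would vary as the CCNE-TA libraries do. Its log2 changes were 1.54 for Apoc1, 1.55 for Apoc4, 1.13 for Apoc3, 1.01 for Apoa2 and -2.24 for Apom. With Xist as a covariate the genes called were Apoc1, Apoc3, Apoc4 and Apom, against 18.1% of all tested genes, and Apoa2 stood at 0.82 (edgeR adjusted p = 0.215). Without TA 2 the genes called were Apoc4 and Apom, against 12.8% of all tested genes, and without TA 3 also Apoc1, against 11.6%.

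Among the high-density lipoprotein genes, Apoa2, the second protein of these particles, measured 6143, 6333 and 6300 CPM in TA livers 1 to 3 and 16240, 12260 and 8873 CPM in CCNE-TA livers. The 3 TA values were close together, and every CCNE-TA library was above them. Its log2 change was 0.99 ± 0.31 (SE, edgeR adjusted p = 0.0451), close to the threshold. It passed in 4 of 15 alternatives, with changes from 0.17 to 1.19. Apoa1, the main structural protein and activator of cholesterol esterification, stood at 6885, 8320 and 5391 CPM in TA and at 11300, 8759 and 8480 CPM in CCNE-TA. The groups were apart by a small gap, and the change of 0.47 ± 0.30 did not pass (edgeR adjusted p = 0.259).

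Apom, the carrier of sphingosine-1-phosphate, fell the most. It stood at 280.3, 318.8 and 257.1 CPM in TA livers and at 62.3, 71.8 and 45.1 CPM in CCNE-TA livers, so the groups were far apart. Its log2 change was -2.26 ± 0.24 (edgeR adjusted p = 0.00204), and it passed in 14 of 15 alternatives, with values from -2.87 to -2.08. The exception was TA 1 as the only control, with -2.24 and an edgeR adjusted p of 0.0636. Apoa4 varied most between libraries of 1 group, with 511.9, 88.6 and 105 CPM in TA and 227, 659.6 and 222.2 CPM in CCNE-TA. TA 1 and CCNE-TA 2 held the high values, the groups overlapped, and the change of 0.65 ± 0.80 did not pass (edgeR adjusted p = 0.57). Without TA 1 it was 1.92 and passed (edgeR adjusted p = 0.0438).

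Apob encodes the structural protein of very-low-density lipoprotein. Its level was 3318, 4509 and 4073 CPM in TA livers and 2775, 2628 and 2293 CPM in CCNE-TA livers. Every CCNE-TA library was below every TA library, but the change of -0.63 ± 0.26 did not pass the test (edgeR adjusted p = 0.103). DESeq2 called it lower (DESeq2 adjusted p = 0.0155), and the length and GC offset left -0.15 ± 0.28. The confidence interval of the edgeR value, -1.14 to -0.11 at 95%, is not adjusted for the number of genes.

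The 3 C apolipoproteins rose together. Apoc1, an inhibitor of remnant uptake, stood at 2571, 2902 and 3298 CPM in TA and at 8612, 6655 and 7397 CPM in CCNE-TA, a change of 1.37 ± 0.27 (edgeR adjusted p = 0.0108). Apoc3, an inhibitor of lipoprotein lipase, stood at 1945, 1730 and 1857 CPM against 4699, 4025 and 4193 CPM, a change of 1.22 ± 0.25 (edgeR adjusted p = 0.0115). Apoc4, a minor very-low-density component, stood at 541.3, 584.9 and 624.3 CPM against 1678, 1305 and 1825 CPM, a change of 1.46 ± 0.25 (edgeR adjusted p = 0.0072). In each of these genes every CCNE-TA library lay above every TA library. Apoc4 passed in 13 of 15 alternatives, Apoc1 in 12 and Apoc3 in 11. The length and GC offset reduced the 3 changes to 0.41 for Apoc4, 0.44 for Apoc1 and 0.38 for Apoc3, none of them past the threshold (edgeR adjusted p = 0.219, 0.25 and 0.287).

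Apoe, the receptor ligand, and Apoh, the phospholipid binder, showed no change past the threshold. Apoe measured 17240, 19060 and 19190 CPM in TA and 23480, 26950 and 14270 CPM in CCNE-TA, with CCNE-TA 3 below every TA library and the 2 other CCNE-TA libraries above them. Its change was 0.22 ± 0.33 (edgeR adjusted p = 0.639), with a 95% interval from -0.42 to 0.87. Apoh measured 2340, 2784 and 2421 CPM in TA and 3115, 2877 and 1590 CPM in CCNE-TA, with the same library lowest. Its change was 0.01 ± 0.31 (edgeR adjusted p = 0.989), with a 95% interval from -0.61 to 0.62. CCNE-TA 3 was also the lowest liver library in the summed level of 25 genes secreted or made by hepatocytes, at 120000 CPM, against 203000 and 241000 CPM in the other CCNE-TA livers and 201000 to 209000 CPM in TA livers. That list had 0 genes higher and 1 lower (Cps1, an enzyme of the urea cycle, -1.45 ± 0.42, edgeR adjusted p = 0.034), with a median change of -0.41. Its part in the Apoe and Apoh values was not tested.

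**Figure D2:**
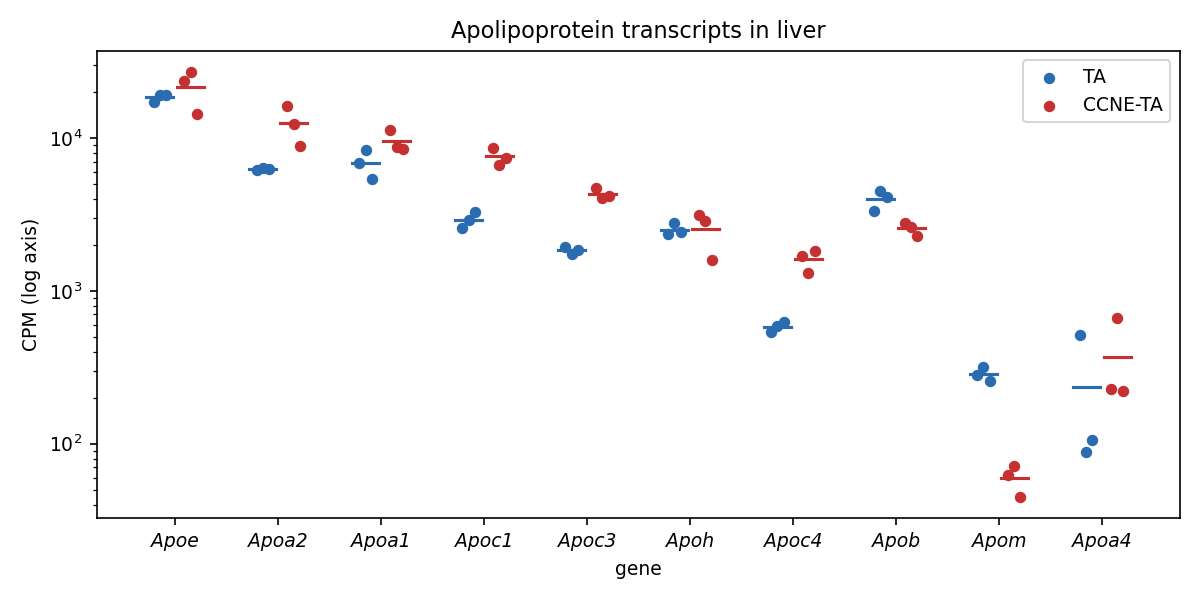
Level of the 10 genes in each liver library, in CPM on a log axis, with TA and CCNE-TA libraries side by side and bars for the group means (n = 3 per group). Apoc1, Apoc3, Apoc4 and Apoa2 lie higher and Apom lower in all 3 CCNE-TA libraries, while the points of Apoa4, Apoe and Apoh overlap between genotypes.

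Set against Apob in the same library, the short apolipoproteins stood higher in CCNE-TA liver. Counts of the 9 short genes together were 11.6, 9.34 and 9.68 times those of Apob in TA livers and 25, 24.2 and 20.5 times in CCNE-TA livers, a 2.28-fold difference (1.19 ± 0.13 on the log2 scale, SE). Without Apoe the log2 difference was 1.45. The ratio of Apoc1 to Apob was 0.775, 0.644 and 0.810 in TA and 3.10, 2.53 and 3.23 in CCNE-TA, so Apoc1 had fewer counts than Apob in every TA liver and more in every CCNE-TA liver. The ratio of Apoc3 crossed 1 in the same way, from 0.586, 0.384 and 0.456 to 1.69, 1.53 and 1.83. For Apoa2 it went from 1.85, 1.4 and 1.55 to 5.85, 4.67 and 3.87. The ratio of Apom fell, from 0.0845, 0.0707 and 0.0631 to 0.0225, 0.0273 and 0.0197.

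Of the 9 ratios, 6 were higher in every CCNE-TA library, 1 was lower and 2 overlapped. Of all 13810 other genes tested in liver, 45.7% had a higher ratio to Apob without overlap and 5.65% a lower one. The log2 differences were 2.07 ± 0.22 for Apoc4, 1.99 ± 0.15 for Apoc1, 1.84 ± 0.19 for Apoc3, 1.57 ± 0.21 for Apoa2, 1.10 ± 0.21 for Apoa1 and 0.79 ± 0.23 for Apoe. Apom stood at -1.66 ± 0.18. Apoa4 (1.56 ± 1.06) and Apoh (0.57 ± 0.24) overlapped. In a two-sided exact permutation test the 7 ratios without overlap reached p = 0.1, the smallest that 3 libraries against 3 can give. All 9 share the Apob counts, so they are not independent of each other.

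**Figure D3:**
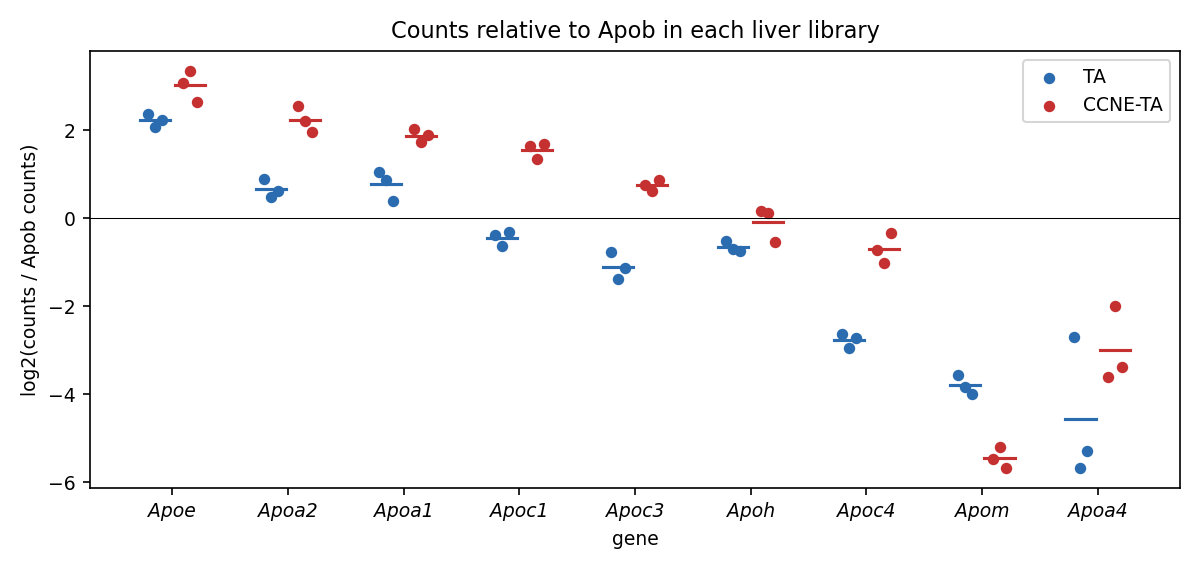
Log2 ratio of each short gene's counts to the Apob counts of the same liver library, with TA and CCNE-TA libraries in different colours. The points of 6 genes lie higher in all CCNE-TA libraries, those of Apom lower, and those of Apoa4 and Apoh overlap.

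Changes in liver varied with transcript length across the whole table. Over all tested genes the median log2 change was 1.17 for the 171 genes of up to 600 nt, 0.72 for 607 genes of up to 1000 nt, 0.35 for 1269 genes of up to 1500 nt and -0.46 for 713 genes above 8000 nt. In kidney the medians of the length classes ran from -0.02 to 0.06 and in lung from -0.03 to 0.04. Within the shortest class in liver, 55.0% of the genes were called higher. Apoc4 there lay above 111 genes and below 59, Apoc1 above 102 and below 68, and Apoa2 above 67 and below 103. Apoc3 lay above 467 of its class of 607 genes and below 139. Genes with a mean above 100 CPM, which include the members, had lower medians in these classes. The 39 of up to 600 nt had a median of 0.96 and an upper quartile of 1.15. Apoc4 (1.46) and Apoc1 (1.37) lay above that quartile and Apoa2 (0.99) below it. For the 110 from 600 to 1000 nt the upper quartile was 0.95, and Apoc3 (1.22) lay above it.

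Apob, in the longest class, lay above 276 genes and below 436, so its value of -0.63 was near the class median of -0.46. Apoa1, Apoe, Apoh and Apom share the class from 1000 to 1500 nt, in which 4.18% of the genes were called lower. Apom lay above 14 of its 1269 genes and below 1254, while Apoa1 lay above 702, Apoe above 541 and Apoh above 375. With the offset for length and GC content the median difference of the 9 short genes from Apob moved from 1.28 to 0.33, and the number above Apob from 8 to 5. After it the difference from Apob was 0.59 for Apoc1, 0.56 for Apoc4, 0.53 for Apoc3, 0.33 for Apoa2, -0.09 for Apoa1, -0.24 for Apoe and -2.72 for Apom. RNA quality values were not among the data used here, and their part in the relation with length was not tested.

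**Figure D4:**
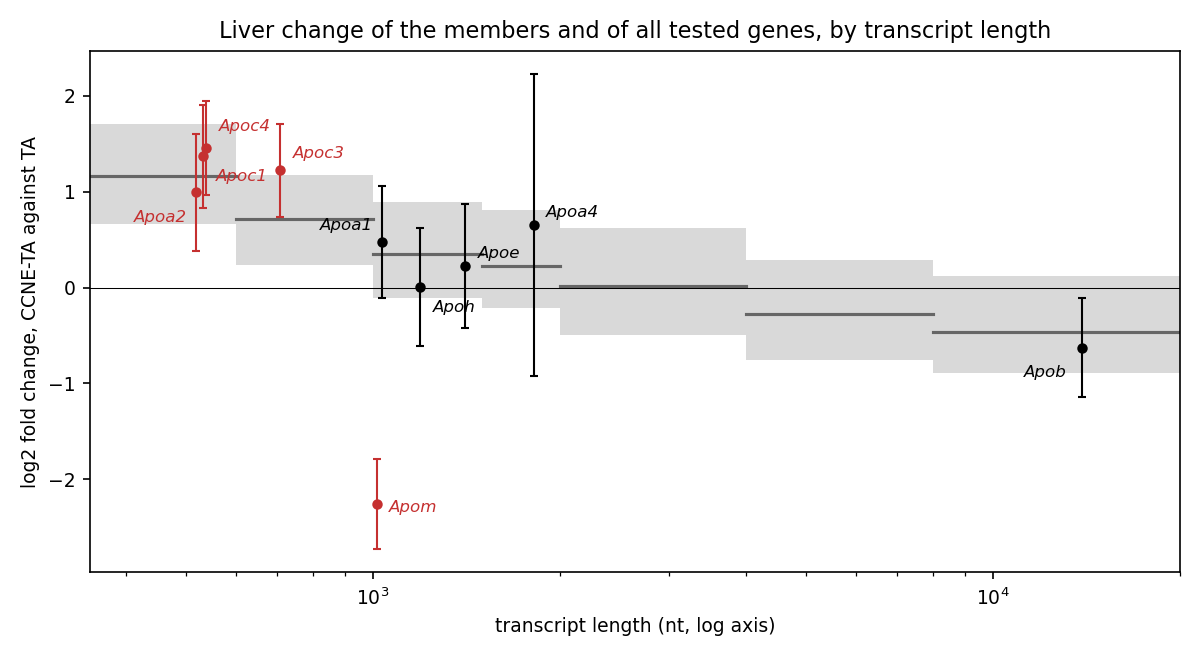
Log2 change in liver (CCNE-TA against TA) of each gene, with its 95% interval, by transcript length in nt on a log axis, over the median and quartiles of all tested genes in 7 length classes. Points in red passed the test. Apoc1, Apoc4, Apoa2 and Apob lie between the quartiles of all tested genes in their length class. Apoc3 lies above its class median and Apom far below.

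Other genes of lipoprotein metabolism were read from lists. Of 15 other apolipoprotein genes tested in liver, 4 rose and 1 fell, with a median change of -0.07. Apoc2, the cofactor of lipoprotein lipase and the neighbour of Apoc4, went from 124.3 to 147.7 CPM in TA to 313.9 to 451.1 CPM in CCNE-TA, a change of 1.43 ± 0.23 (edgeR adjusted p = 0.00582). Apoo, a protein of the mitochondrial inner membrane, changed by 2.01 ± 0.25 (edgeR adjusted p = 0.00277). Saa4, a constitutive component of high-density lipoprotein, changed by -1.74 ± 0.46 (edgeR adjusted p = 0.0261). Apol9a and Apol9b, the other genes called higher, are near-identical copies whose reads may be split between them. With the length and GC offset 2 of the 15 were called higher (Apoo and Apol9b) and 1 lower (Saa4). Apoc2 then stood at 0.58 ± 0.22 (edgeR adjusted p = 0.0847).

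Of 29 tested genes for particle assembly and secretion, 10 fell in CCNE-TA liver and 1 rose (Smlr1, 0.96), with a median of -0.49. Mia2, a cargo receptor at endoplasmic reticulum exit sites, stood at 79.8, 82.3 and 71.6 CPM in TA and at 2.79, 4.78 and 4.39 CPM in CCNE-TA, a change of -4.29 ± 0.25 (edgeR adjusted p = 0.000179). A1cf, a cofactor of Apob messenger RNA editing, changed by -1.97 ± 0.28 (edgeR adjusted p = 0.00393). Dnajb11, a chaperone of the endoplasmic reticulum, changed by -1.13 ± 0.23 (edgeR adjusted p = 0.0111), and Tor1aip1, a nuclear membrane protein, by -1.02 ± 0.19 (edgeR adjusted p = 0.00958). Mttp, which loads lipid onto Apob and was chosen for mention after its value was seen, changed by -0.84 (edgeR adjusted p = 0.0279). With the offset 8 of the 29 were lower and 0 higher, while Mttp no longer passed (-0.64, edgeR adjusted p = 0.0648). Of all tested genes 12.9% were then lower.

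Genes that act on particles in plasma included 2 higher and 4 lower of 13 tested, with a median of -0.26. Lpl, lipoprotein lipase, the enzyme that Apoc3 inhibits, measured 14, 30.5 and 11.2 CPM in TA and 208.4, 190.1 and 88.1 CPM in CCNE-TA, a change of 3.13 ± 0.48 (edgeR adjusted p = 0.00567). It kept this size with the offset, at 3.31 ± 0.49. The convertases Furin and Pcsk6 changed by -1.01 (edgeR adjusted p = 0.0142) and -1.03 (edgeR adjusted p = 0.0202). With the offset Furin stood at -1.08 (edgeR adjusted p = 0.026), and Pcsk6 no longer passed (edgeR adjusted p = 0.0511). Of 19 receptor and exporter genes 4 fell and 0 rose by edgeR, with a median of -0.47, and DESeq2 called 5 lower and 2 higher. Among those that fell were Abca1, which loads lipid onto Apoa1 (-1.32 ± 0.26, edgeR adjusted p = 0.0107), and Lrp5 (-0.75, edgeR adjusted p = 0.0269). With the offset this list gave 2 lower and 2 higher. Lrp5 was then still lower (-0.75, edgeR adjusted p = 0.0393), and Abca1 no longer passed (-0.83, edgeR adjusted p = 0.0681).

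Of 32 genes for regulators of apolipoprotein transcription, 8 fell and 2 rose, with a median of -0.13. Srebf2, a regulator of sterol genes, changed by -1.29 ± 0.17 (edgeR adjusted p = 0.00335), and the nuclear receptor Nr5a2 by -1.50 ± 0.20 (edgeR adjusted p = 0.00349). Prox1 changed by -2.06 ± 0.31 (edgeR adjusted p = 0.00477). Rxra, the shared partner of many nuclear receptors, stood at 563.5, 557.2 and 587.8 CPM in TA and at 206.2, 252.1 and 212.5 CPM in CCNE-TA (-1.35 ± 0.21, edgeR adjusted p = 0.00567). With the offset 9 were lower and 1 higher. Hnf4a, which was chosen after its value was seen, changed by -0.87 (edgeR adjusted p = 0.0305) and by -0.77 with the offset (edgeR adjusted p = 0.0676). The HNF4 core letters occur in the windows of Apob, Apoa4 and Apoh, none of which passed the edgeR test in liver. The part of Hnf4a in the apolipoprotein values was not tested.

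Markers of other cells were read in liver as well. Of 13 macrophage genes 1 rose (Itgax) and 2 fell (Mrc1, Lyz2), and their summed level ranged from 438 to 978 CPM in TA and from 415 to 797 CPM in CCNE-TA. Mrc1 no longer passed with the offset (-0.52, edgeR adjusted p = 0.058). Of 9 tested tubule genes Aqp1 fell and 0 rose, but the median change was 1.72, 3 were higher without overlap and DESeq2 called 2 higher and 1 lower. With the offset Lrp2, an endocytic receptor of the tubule, was called higher (1.81, edgeR adjusted p = 0.0428) and Aqp1 lower. The part of tubule RNA in the liver values was not tested. Of 5 intestine and pancreas genes Vil1 rose and Cela1 fell, with Sis, Cdx2 and Amy2a5 at 0 in every liver. Of 9 stellate and mural genes 1 rose and 1 fell, and of 7 lung genes Sftpd and Ager rose, to at most 6.73 CPM. Ager no longer passed with the offset (1.14, edgeR adjusted p = 0.148). Over all lists but the members, the edgeR test called 0 of 170 genes in kidney and 0 of 173 in lung, where 11 and 48 had an unadjusted p under 0.05. DESeq2 called 3 lower in kidney, and 20 lower and 1 higher in lung.

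The genes whose centred log2 levels ran closest to those of 4 members over the 6 liver libraries were read from 3744 genes with a mean of at least 5 log2 CPM, by root mean square difference. Apob ran closest to Xiap (0.051), Zmpste24 (0.068) and Hfe (0.072), which were called lower (log2 changes of -0.62, -0.61 and -0.56). Apoa2 ran closest to Cyb5 (0.085), Tmem176b (0.106) and Atp6v1f (0.122), and Apoe to Tfpi2 (0.068), Fth1 (0.069) and C8g (0.078). For Apoa4 the nearest genes, Ifi27 (0.499), Mfsd2a (0.608) and Trp53inp1 (0.636), were several times farther away. The likeness is a description of 6 libraries.

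In kidney none of the 10 genes passed the edgeR test and none had groups without overlap. Of 15247 tested genes 0.0131% were called, and 3.04% were higher and 2.68% lower without overlap. DESeq2 called 0 as well. By the unadjusted edgeR p, 1 of the 10 was under 0.05 (Apob), against 2.13% of all tested genes. Apob measured 112.3, 170.4 and 174.6 CPM in TA and 106.3, 112.6 and 95 CPM in CCNE-TA, with only TA 1 inside the CCNE-TA range, a change of -0.54 ± 0.22 (edgeR adjusted p = 0.999). Apoe measured 299.4, 503.2 and 419.3 CPM in TA and 516.1, 1016 and 420.6 CPM in CCNE-TA, a change of 0.68 ± 0.36 (edgeR adjusted p = 0.999). CCNE-TA 2 held the highest Apoe value. The summed macrophage list was highest in CCNE-TA 1 (484 CPM) and lay at 231 and 237 CPM in the other CCNE-TA kidneys, against 236 to 281 CPM in TA kidneys. Its part in the Apoe values was not tested.

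Same-numbered kidney libraries deviated together, so the values were also read within the 3 numbers. Apoa1, Apoa2, Apob and Apoc4 were lower in CCNE-TA within all 3, where 13.9% of tested genes were, and Apoe was higher, where 13.1% were. Apoa2 measured 38.8, 29.4 and 33.7 CPM in TA and 31.6, 21.1 and 26.7 CPM in CCNE-TA. The margin of Apoe was small within number 3. With the replicate block the change was -0.52 ± 0.17 for Apob (edgeR adjusted p = 0.859), -0.37 ± 0.13 for Apoa2 (edgeR adjusted p = 0.884) and 0.60 ± 0.20 for Apoe (edgeR adjusted p = 0.873). That fit called 0 of the 10, against 0.0197% of all tested genes.

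Apom, which tubule cells make, measured 24.6, 35.5 and 55.3 CPM in TA kidneys and 17.3, 38.8 and 56.4 CPM in CCNE-TA kidneys. Its change was -0.04 ± 0.42, and number 3 was highest in both genotypes. Relative to the mean liver level of the same genotype, Apom in kidney was 6.55% ± 2.64 in TA and 30.6% ± 16.1 in CCNE-TA (SD, n = 3), where the liver level is the one that fell. Apoa4 stood at 4.81%, Apob at 1.87%, Apoc3 at 1.14% and Apoe at 1.07% of the TA liver level. The 5 others lay between 0.125% (Apoh) and 0.329% (Apoc1). For the 25 hepatocyte genes the median share in TA kidney was 0.125%, with a range from 0.0364% to 1.24%. By these means Apom, Apoa4 and Apob lay above every gene of that list. In kidney TA 3, however, Serpina1a (3.25%) and Serpina1d (2.90%) lay above every TA kidney value of Apob (1.37%, 2.10% and 2.13%).

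In lung all 10 genes were lower in CCNE-TA than in TA mice by their fitted values, but 0 passed the edgeR test within lung, where 0.00594% of 16823 genes were called. Of the members, 8 did not overlap between groups, against 4.59% of tested genes lower without overlap, and 9 had an unadjusted p under 0.05, against 3.65%. The median change was -2.97, and 0.02 over all tested genes. DESeq2 and the edgeR fit of all 18 libraries each called 7 lower, namely Apoa1, Apoa2, Apoc1, Apoc3, Apoc4, Apom and Apoh, where they called 0.999% and 0.513% of all tested genes lower. Ccne1 itself, with a change of 4.61, did not pass within lung (edgeR adjusted p = 0.897).

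Apoc3 in lung measured 21.8, 30.9 and 66.7 CPM in TA and 5.19, 4.86 and 1.97 CPM in CCNE-TA, a change of -3.31 ± 0.57. Apoc4 measured 6.86, 8.80 and 16.8 CPM in TA and 1.54, 1.35 and 0.762 CPM in CCNE-TA, a change of -3.15 ± 0.46 (edgeR adjusted p = 0.897). Apoa1 measured 41.2, 66.8 and 179.8 CPM against 14.7, 9.02 and 3.27 CPM, and Apoa2 42.5, 61.5 and 167.6 CPM against 14.6, 9.85 and 3.64 CPM. In these genes TA 3 was the highest library, CCNE-TA 3 the lowest, and the groups were apart. Apoc1 was apart as well, at 51.4, 61.5 and 137.7 CPM against 21.3, 28 and 17.5 CPM. Apoh had the largest fitted change, -3.53 ± 0.96, from 10.2, 16.4 and 68.4 CPM to 4.81, 2.52 and 0.815 CPM.

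Apob and Apoe overlapped between the groups. Apob measured 14, 20.2 and 114.3 CPM in TA and 15.2, 3.89 and 2.12 CPM in CCNE-TA, and Apoe 555.3, 685.8 and 1141 CPM against 624.2, 577.8 and 358.9 CPM (-0.61 ± 0.34). Apom measured 2.11, 3.10 and 6.91 CPM in TA and 0.984, 0.518 and 0.342 CPM in CCNE-TA, and Apoa4 1.84, 2.51 and 2.81 CPM in TA and 0.915, 0.299 and 0.0657 CPM in CCNE-TA. The last value lies near 3 counts, which correspond to 0.0193 to 0.0721 CPM in lung. Without lung TA 3 and CCNE-TA 1 together, again 0 of 10 passed, and the changes ran from -0.41 for Apoe and -1.31 for Apoc1 to -3.54 for Apoa4.

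Genes made by hepatocytes also had lower values in CCNE-TA lungs. Of the 25 on that list 0 passed the edgeR test, 20 had an unadjusted p under 0.05, DESeq2 called 10 lower, 19 were lower without overlap, the median change was -2.86 and none was at 0. Their summed level was 1190, 1650 and 4580 CPM in TA lungs and 1040, 667 and 505 CPM in CCNE-TA lungs. Alb, albumin, measured 265.4, 418.1 and 1402 CPM in TA lungs and 203.5, 66.2 and 16.9 CPM in CCNE-TA lungs. The order of the libraries was that of most apolipoproteins, TA 3 highest and CCNE-TA 3 lowest. The summed macrophage list had another order, with 3300, 4110 and 5980 CPM in TA and 7350, 4870 and 3100 CPM in CCNE-TA. The part of either list in the apolipoprotein values was not tested.

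Lung levels were small shares of liver levels. In TA lung the members stood at 0.396% (Apoa4) to 1.69% (Apoe) of the mean TA liver level, with a median of 0.561%, and the hepatocyte list at 0.181% to 1.55%, with a median of 0.504%. In CCNE-TA lung the median was 0.0441% for the members and 0.0667% for the hepatocyte list. Apoe stood at 0.960% ± 0.255 there and Apom at 0.409% ± 0.217, relative to a lower liver level, while Apoa2 stood at 0.0298% ± 0.0173, the lowest member. Lung TA 3 held the highest share of each member, with 2.40% for Apoe, 1.84% for Apoc1 and 0.462% for Apoa4. With scaling by library totals in place of TMM factors over all 18 libraries the member medians were 1.48% in TA and 0.110% in CCNE-TA lung, and without lung TA 3 and CCNE-TA 1 they were 0.362% and 0.0292%.

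**Figure D5:**
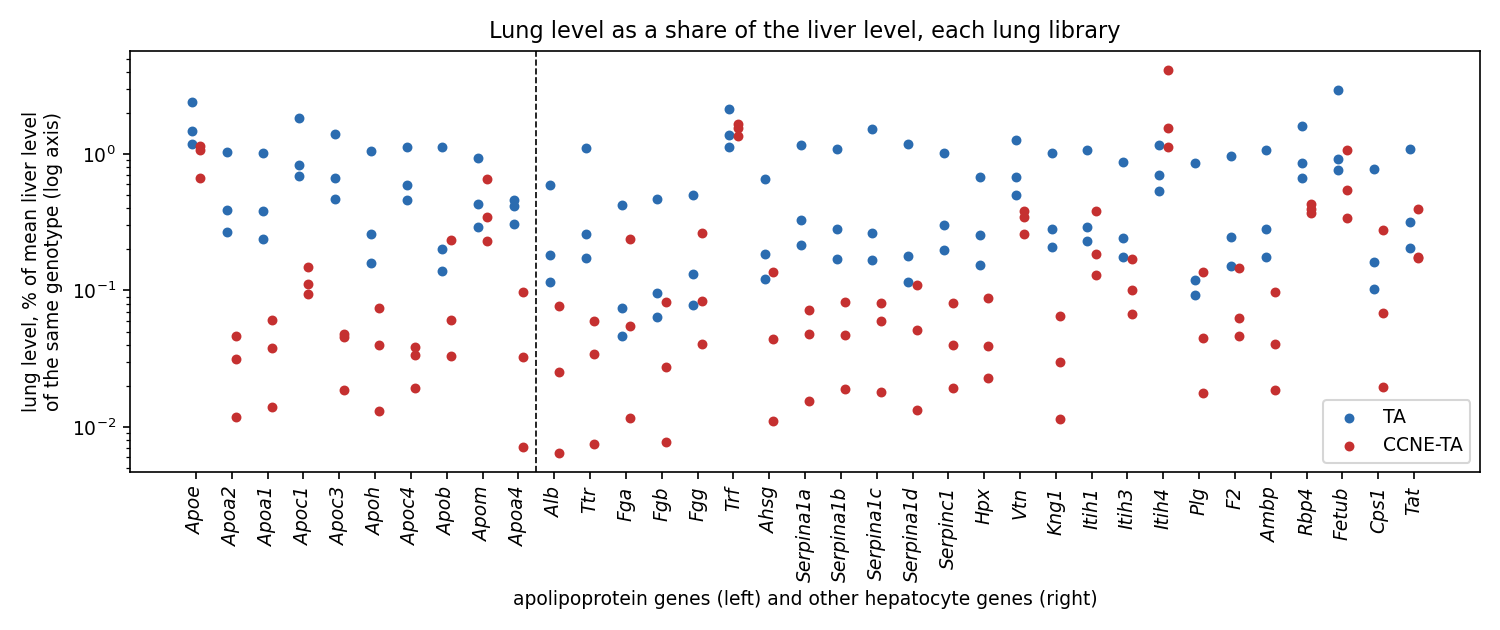
Lung level of each of the 10 genes (left) and of 25 hepatocyte genes (right) as a percentage of the mean liver level of the same genotype, on a log axis. Medians are 0.561% and 0.504% in TA and 0.0441% and 0.0667% in CCNE-TA, and Apoe lies highest among the members in both genotypes.

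Read per 1000 Alb counts of the same library, the lung range lay above the liver range for 8 of the 10 genes in TA mice, with Apoa4 and Apob overlapping. So did that of 11 of the 24 hepatocyte genes other than Alb, and Alb itself stood at 0.298% of its liver level in TA lung, below the list median of 0.504%. The median ratio of the lung to the liver value was 2.09 over the members and 1.55 over these 24 genes. The mean lung value was 7.19 times the liver value for Apoe, 4.35 times for Apoc1, 3.26 times for Apoc3 and 2.94 times for Apoc4. Apoe stood at 2090, 1640 and 814 counts per 1000 Alb counts in TA lungs and at 162, 196 and 274 in TA livers. Apoc1 stood at 194, 147 and 98.2 against 24.2, 29.8 and 47.0. In CCNE-TA mice 3 genes lay above the liver range, namely Apoe, Apom and Apob, while 7 overlapped. The mean lung value of these 3 was 53.6, 18.8 and 3.37 times the mean liver value. Of the 24 hepatocyte genes 17 lay above the liver range there, with a median ratio of 2.44 against 1.59 for the members. Apoe ran from 3070 to 21300 per 1000 Alb counts over the 3 CCNE-TA lungs, highest in the library with the least Alb.

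The genotype effect in liver differed from that in kidney for 2 genes and from that in lung for 6, in 1 edgeR fit of all 18 libraries. Against kidney, 9.52% of 17155 genes differed, among them Apoc4 (1.85 ± 0.53, edgeR adjusted p = 0.0404) and Apom (-2.23 ± 0.66, edgeR adjusted p = 0.0453). Against lung, 12.7% differed, among them Apoc4 (4.57 ± 0.54, edgeR adjusted p = 0.000738), Apoc3 (4.51 ± 0.59, edgeR adjusted p = 0.00121) and Apoc1 (3.25 ± 0.54, edgeR adjusted p = 0.00467). The high-density lipoprotein genes Apoa2 (4.25 ± 0.73, edgeR adjusted p = 0.00516) and Apoa1 (3.86 ± 0.75, edgeR adjusted p = 0.00783) and the phospholipid binder Apoh (3.52 ± 0.95, edgeR adjusted p = 0.0273) also differed. Apoa4 (3.03), Apob (2.15), Apoe (0.81) and Apom (0.39) did not pass against lung. Both comparisons share the liver libraries. The call for Apoc4 against kidney held in 7 of 16 alternatives and that for Apom in 5, each being lost without any 1 of several libraries of either tissue. Calls over all genes fell as well, from 1634 in the main fit. Where both member calls were lost, they ran from 190 higher and 206 lower (without kidney CCNE-TA 2) to 684 higher and 592 lower (without liver TA 1). Against lung, Apoa1, Apoa2, Apoc1, Apoc3 and Apoc4 held in 16 of 16 and Apoh in 10. The length and GC offset and the Xist covariate were not among these 16 for either comparison.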

How the data were processed

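RNA of liver, kidney and lung was measured by RNA-seq in 18 libraries. The values deposited by the authors are raw counts of reads per gene symbol, not normalized. Per the submitters' processing notes TopHat2 2.0.14, Bowtie2 2.2.6 and featureCounts 1.4.6 of Subread were used with mm10. Which annotation and strand setting were used, and how multiply aligned reads were treated, was not given in the sources used here. Per the labels, RNA was column-extracted and libraries were made with a TruSeq v2 kit, which does not mark strand. All 18 columns were used and 0 were left out.

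Each tissue was fitted alone with edgeR 4.0.16 in R 4.3.3 (filterByExpr, TMM scaling, robust quasi-likelihood F test), with Benjamini-Hochberg adjustment over all tested genes and a threshold of 0.05. All 10 members passed the filter in each tissue. Differences between tissues were tested in 1 edgeR fit of all 18 libraries. CPM values carry TMM factors within a tissue, and shares of the liver level use factors over all 18 libraries. Log2 changes are fitted values, computed by edgeR with its default prior count, and are positive where CCNE-TA is higher. Their SE is the change divided by the square root of F. Intervals are the change ± 1.96 SE, narrower than those that the degrees of freedom of the F test would give. A prior count of 0.5 was used for the ratios to Apob and for the nearest genes. TPM and length classes use the longest coding transcript of GENCODE M21, which gave 98.4% of symbols a length, 916 of them through a RefSeq synonym. In liver, kidney and lung 3 counts correspond to 0.0484 to 0.114, 0.0694 to 0.147 and 0.0193 to 0.0721 CPM, which covers counting error alone. Of counts from 1 to 20, 64.2% to 71.2% were even, so single counts are not independent molecules.

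The members, the lists and the tests were chosen with earlier results of these data known. The 12 lists were the members, other apolipoproteins, particle assembly, plasma remodelling, receptors and exporters, regulators, and markers of hepatocytes, macrophages, proximal tubule, intestine and pancreas, stellate and mural cells, and lung. Named genes were the members, up to 4 genes of each list by unadjusted p, Ccne1 and the 3 nearest genes of 4 members. Smlr1, Mttp, Hnf4a and some marker genes were named after their values were seen. Some genes that this rule names are not reported here.

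Alternatives were DESeq2 1.42.0, RLE and upper-quartile scaling, no filter, 1 fit of all libraries, the replicate block, Xist as a covariate, an offset from splines (4 df) of length and GC content, TA 1 as the only liver control, leaving out each library, and lung without TA 3 and CCNE-TA 1. The offset, the Xist covariate and upper-quartile scaling were run within each tissue, not for the differences between tissues. Counts of the liver lists with the offset were chosen after seeing the data. Same-numbered kidney libraries deviated together across genes (correlations of 0.293, 0.466 and 0.330 for the 3 numbers), a pairing that the labels do not state. Simulated data were tested with 200 changed genes per comparison. At a 4-fold change the test found 71.0% of them in liver, 83.0% in kidney, 71.5% in lung, 42.0% for liver against kidney and 41.5% for liver against lung. At a 2-fold change the test found 0.0%, 3.5% and 0.0% in liver, kidney and lung. In the data 28.5% of genes were called in liver, 9.52% for liver against kidney and 12.7% for liver against lung. With 200 changed of 13811 genes the adjustment was stricter in simulated than in real liver. The shares found therefore do not give the power of the liver test or of the differences between tissues.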

Additional observations from a re-analysis of the deposited data

Results flagged for a closer look

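The genotype effect differed between tissues for 7 of the 10 genes, by an interaction test in 1 edgeR fit of all 18 libraries. Between liver and kidney the effect differed for Apoc4 (1.85 on the log2 scale, edgeR adjusted p = 0.0404) and for Apom (-2.227, edgeR adjusted p = 0.0453). Of 17155 tested genes, 9.52% differed there. The call held in 7 of 16 alternatives for Apoc4 and in 5 of 16 for Apom. The length and GC offset was not run for differences between tissues. Between liver and lung the effect differed for Apoa1 (3.859), Apoa2 (4.245), Apoc1 (3.248), Apoc3 (4.505), Apoc4 (4.568) and Apoh (3.52), with edgeR adjusted p from 0.000738 to 0.0273. Of all tested genes 12.7% differed between liver and lung, and both comparisons share the liver libraries. In Apoa1 and Apoh the liver value was 0.47 and 0.01, so the lung value of -3.41 and -3.53 made up most of the difference. In the other 4 genes liver CCNE-TA libraries lay above TA libraries and lung CCNE-TA libraries below them.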

How the results depend on the processing

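Over the members, 865 of 960 values under the alternatives kept their direction and their side of the threshold, 47 lost it, 20 gained it and 28 changed sign. For the genotype effect in liver alone, 115 kept both, 21 lost the call, 2 gained it and 12 changed sign. Among the 865 were all 100 values of TA liver against TA lung and all 100 of TA liver against TA kidney. The cause of these changes was not tested. In liver the number of members called was 5, where 28.5% of all tested genes were called. It was 1 with the length and GC offset, where 22.2% of all tested genes were called. When a library was left out it was 2 to 5, with 2 without TA 2, where 12.8% of all tested genes were called. With the offset the changes of Apoa1, Apoe and Apoh were -0.239, -0.395 and -0.356. Apoa4 stood at -0.474 with TA 1 as the only control and at -0.077 to 1.923 when a library was left out. Apoh stood at -0.018 with no filter, -0.194 with Xist as a covariate and -0.154 to 0.251 when a library was left out. The median difference of the short genes from Apob was 0.325 with the offset. The number of members called in lung was 7 by DESeq2 and 7 in 1 fit of all 18 libraries, against 0. Those 2 fits called 0.999% and 0.513% of all tested genes lower. For liver against kidney the number of members called was 1 with no filter, where 681 genes were called higher and 692 lower. It was 0 to 2 when a library was left out, with 0 without kidney CCNE-TA 2, where 190 genes were called higher and 206 lower. Shares of the liver level from library totals had medians of 1.48% in TA and 0.110% in CCNE-TA lung, against 0.561% and 0.0441%.

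With the replicate block Apoc1, Apoc3, Apoc4 and Apom were called in liver, without Apoa2 (edgeR adjusted p = 0.117). The share of all liver genes called with the block is not given here, so these calls cannot be set against it. For liver against kidney Apoc4 was called, where 752 genes were called higher and 828 lower. Apoh in liver stood at -0.048 and Apoc3 in kidney at -0.026. In kidney the block made no call. In liver (correlations of 0.204, -0.004 and 0.084) and lung (-0.463, -0.120 and -0.586) libraries share only a number.

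When a library was left out, kidney values ranged from -0.337 to 0.035 for Apoa1, -0.403 to 0.030 for Apoa4, -0.106 to 0.417 for Apoc1, -0.166 to 0.241 for Apoc3, -0.451 to 0.320 for Apom and -0.284 to 0.648 for Apoh. For liver against kidney they ranged from -0.197 to 0.089 for Apob, -0.695 to 0.030 for Apoe and -0.635 to 0.293 for Apoh, and for liver against lung from -0.226 to 0.913 for Apom. Upper-quartile scaling moved the median of all liver genes from 0.02 to 0.21 and no filter moved it to 0.14, and the direction of the called members held.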
